A study of Mus musculus with 6 samples.

Results

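Heparan sulfate sulfotransferases and sulfatases were examined in the stria vascularis of Errb mutant mice and wild-type mice. The set held 10 genes: the 3-O-sulfotransferase genes Hs3st1, Hs3st3a1, Hs3st3b1 and Hs3st6, the 2-O-sulfotransferase gene Hs2st1, the 6-O-sulfotransferase genes Hs6st1 and Hs6st2, the N-sulfotransferase gene Ndst1, and the sulfatase genes Sulf1 and Sulf2. All probe sets annotated with exactly 1 of these symbols were taken, which gave 22 of 45037 probe sets. They covered 9 genes, and Ndst1 had no such probe set and is not analysed here. The genes were chosen with the difference between mutant and wild type in these same arrays known, so that difference is given for them as a description, and the count of calls among them supports nothing.

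The study profiled 3 pools from Errb mutant mice and 3 pools from wild-type mice, each of 10 animals and each on 1 Affymetrix array. The mutants came from a conditional knock-out of Errb, now named Esrrb, which encodes estrogen-related receptor beta. The sample labels name stria vascularis, the potassium-secreting epithelium of the cochlear lateral wall, whereas the series' own design note names inner ears. The sources used here do not name the Cre driver, the strain or the deleted exons. Wild-type replicate 1 alone has a stated age, postnatal day 3 to 5. Values are log2 expression from RMA, a method that combines the probes of a probe set into 1 level. Differences are mutant minus wild type, as the mean ± SD of the 3 pairs of arrays with the same replicate number (n = 3).

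Heparan sulfate is a long sugar chain carried by proteoglycans on the cell surface and in the extracellular matrix. After the chain is built in the Golgi, N-sulfotransferases and then 2-O-, 6-O- and 3-O-sulfotransferases add sulfate groups in patterns that bind growth factors, morphogens and other proteins. The 3-O-sulfate is the rarest and usually the last mark, whereas the secreted sulfatases Sulf1 and Sulf2 remove 6-O-sulfate from finished chains outside the cell.

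Several facts of the whole series bear on these values. Same-numbered arrays shared their level: array medians were 6.08, 6.94 and 6.38 in mutant replicates 1 to 3, against 6.07, 6.95 and 6.42 in wild-type replicates 1 to 3. In pair 1, 8 of the 22 probe sets had exactly the same value in both genotypes, as did 34.2% of all probe sets. The step that gave equal values is not stated. For Gapdh, the excess of the 3' over the 5' control signal, which widens as RNA degrades, was 2.57 in the mutant and 2.28 in the wild type of pair 1, and at most 0.51 on any other array. The 3 probe sets of Esrrb itself differed by -0.07 ± 0.21, -0.18 ± 0.43 and -0.42 ± 0.46. The sources used here do not place them relative to the deletion, and they do not check the genotype labels. In wild type, the strial markers Kcne1, Dct and Cldn11 lay at the 88.9 percentile of all probe sets or above on each array. Other strial markers were lower, with lowest wild-type percentiles of 57.2 for Bsnd, 57.6 for Atp13a5, 73.1 for Kcnj10 and 23.6 for Tyrp1. The cartilage gene Col2a1 lay at the 99.8 percentile or above. Whether fewer cells of a type or less RNA per cell underlies a lower value cannot be told apart in bulk tissue.

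Hs3st6 was the enzyme gene with the lowest values in the mutant relative to wild type. This enzyme adds the 3-O-sulfate to glucosamine. It is measured by 1 probe set, which read 6.42, 7.41 and 6.94 in mutant replicates 1 to 3, against 7.97, 8.50 and 8.27 in wild-type replicates 1 to 3. The highest mutant pool lay below the lowest wild-type pool, so the groups did not overlap. The pair differences were -1.54, -1.09 and -1.33, with a mean of -1.32 ± 0.23, a 2.50-fold lower level in the mutant. The signal was in the middle of the range in the mutant, at the 56.6 to 59.1 percentile of all probe sets on its array, and at the 76.1 to 80.3 percentile in wild type. Only 18 of 18193 genes, each taken by its best expressed probe set, had a lower mean difference. No second probe set carries this symbol in the annotation used, so the value has no check within the array.

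**Figure D1:**
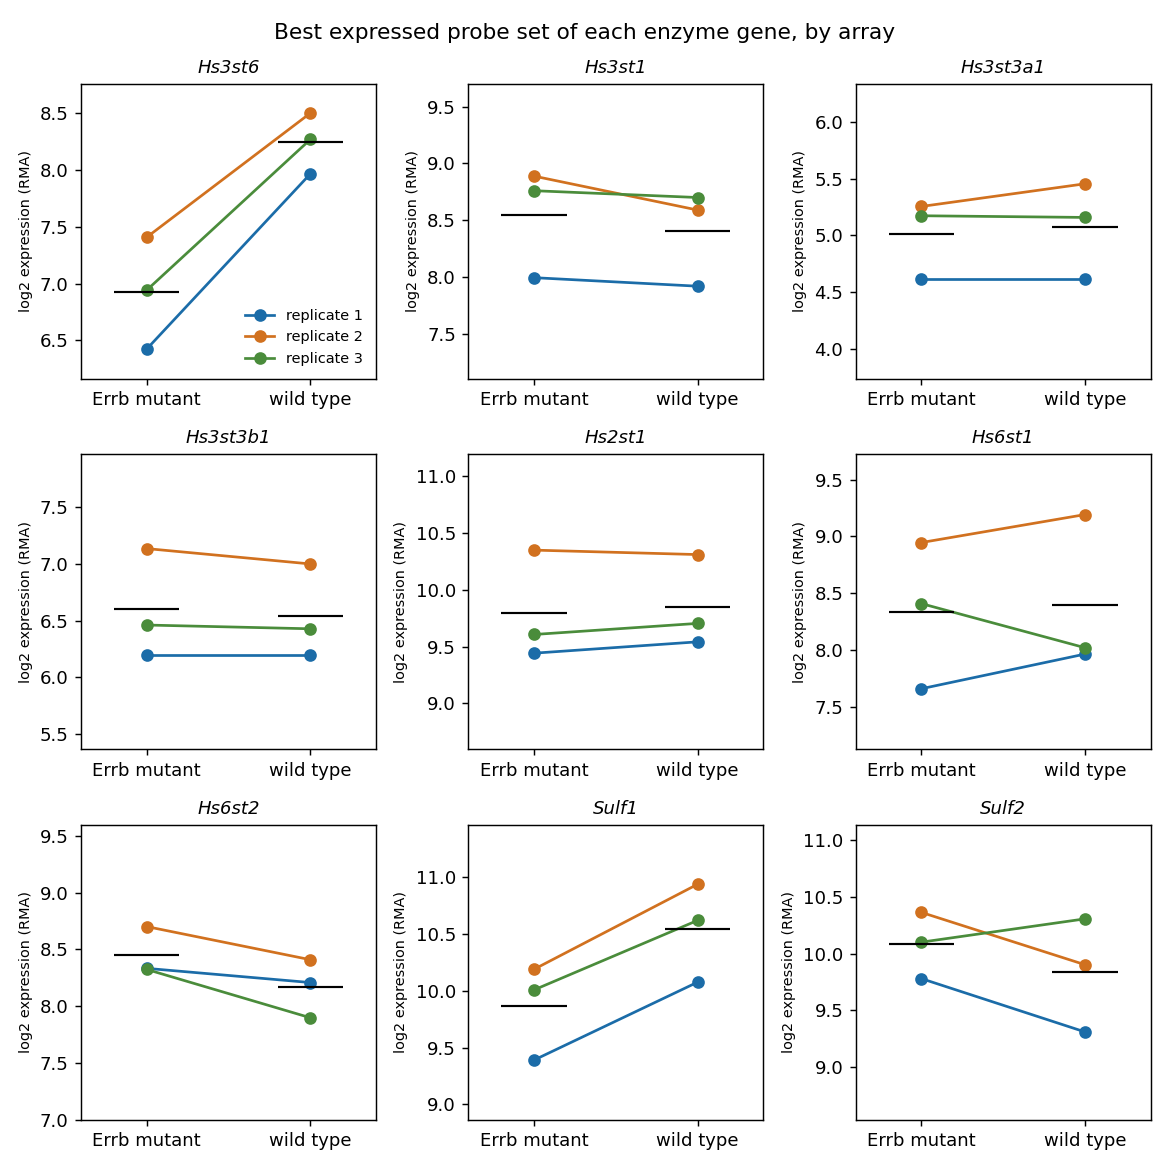
Log2 expression (y axis, each panel spanning the same range) of the best expressed probe set of 9 enzyme genes on each array, with Errb mutant at left and wild type at right; lines join arrays of the same replicate number and black bars are group means (n = 3 pools each). Hs3st6 and Sulf1 are lower in the mutant in all 3 pairs, whereas the lines of the other genes are flatter or differ in slope between pairs.

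The other 3-O-sulfotransferase genes of the set had mean differences between -0.06 and 0.16. Hs3st1, whose product makes the antithrombin-binding site of heparan sulfate, read 7.99, 8.89 and 8.76 in the mutant pools and 7.92, 8.59 and 8.70 in the wild-type pools. Its differences of 0.08, 0.30 and 0.06 were all above 0, with a mean of 0.14 ± 0.13, and its groups overlapped. Hs3st3a1 and Hs3st3b1 encode closely related enzymes that make chain sites used by herpes simplex virus for entry. Hs3st3a1 had 4.62, 5.26 and 5.17 in the mutant, against 4.62, 5.46 and 5.16 in wild type, a difference of -0.06 ± 0.12. This probe set lay at the 19.6 to 29.4 percentile in the mutant and the 22.3 to 28.3 percentile in wild type. Hs3st3b1 had 4 probe sets with mean differences of 0.06, 0.16, 0.01 and -0.06 in order of falling level. The best expressed of them read 6.20, 7.13 and 6.46 in the mutant and 6.20, 6.999 and 6.43 in wild type. Its pair differences were 0, 0.14 and 0.03. The second Hs3st3b1 probe set was higher in the mutant in every pair (0.37, 0.03 and 0.07). The groups overlapped for all 4.

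The 2-O-sulfotransferase gene Hs2st1, which encodes the enzyme that sulfates iduronic acid, was even between the genotypes. Its best expressed probe set read 9.44, 10.35 and 9.61 in the mutant, against 9.54, 10.31 and 9.70 in wild type. The mean difference was -0.05 ± 0.08, and the other 3 probe sets had -0.01 ± 0.06, 0.08 ± 0.08 and 0.01 ± 0.05. All 4 mean differences were thus within 0.1 of 0, and 2 lay on each side of it.

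The 6-O-sulfotransferase genes gave a mixed picture. Hs6st1, measured by 1 probe set, read 7.66, 8.95 and 8.41 in the mutant and 7.96, 9.19 and 8.02 in wild type. It was lower in pairs 1 and 2 (-0.31 and -0.25) and higher in pair 3 (0.39), which gave a mean of -0.05 ± 0.39. Hs6st2 was higher in the mutant in all 3 pairs by its best expressed probe set, with 8.33, 8.70 and 8.32 in the mutant against 8.21, 8.41 and 7.90 in wild type. That difference was 0.28 ± 0.15, with overlapping groups. A weaker probe set of the same gene was also higher in all pairs (0.21 ± 0.09), but it lay at the 5.12 to 9.37 percentile in the mutant and the 2.02 to 7.57 percentile in wild type. The remaining pair of Hs6st2 probe sets differed by 0.01 ± 0.03 and -0.08 ± 0.50, the last with 0.37 in pair 2 and -0.62 in pair 3.

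Sulf1 was also lower in the mutant in every pair, by 2 of its 3 probe sets and at a smaller size than Hs3st6. Its best expressed probe set read 9.39, 10.19 and 10.01 in the mutant, against 10.08, 10.94 and 10.62 in wild type. The pair differences of -0.69, -0.75 and -0.61 were close to each other, and the mean was -0.68 ± 0.07, a 1.61-fold lower level. The groups overlapped, since mutant replicate 2 lay above wild-type replicate 1. Those arrays also differed in their medians, 6.94 against 6.07. A comparison of groups by raw values, here as for the other genes, does not take this out. The part of the array medians in the overlap was not tested. A second probe set read 8.38, 8.73 and 8.64 in the mutant and 9.13, 9.37 and 9.18 in wild type, a difference of -0.65 ± 0.11 with no overlap. The last one, at the 19.2 to 31.6 percentile in the mutant and 19.5 to 32.2 in wild type, was equal in pairs 1 and 2 and differed by -0.07 in pair 3.

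Sulf2, which encodes the other extracellular sulfatase, gave probe sets that disagreed in sign. The best expressed, of a class that can cross-hybridise, read 9.78, 10.36 and 10.10 in the mutant against 9.31, 9.90 and 10.31 in wild type. Its differences were 0.47, 0.46 and -0.21. The next one had -0.01, -0.03 and -0.59 in the 3 pairs, and the last had 0, 0.34 and -0.23. All 3 were lower in the mutant of pair 3, while pairs 1 and 2 ranged from -0.03 to 0.47.

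**Figure D2:**
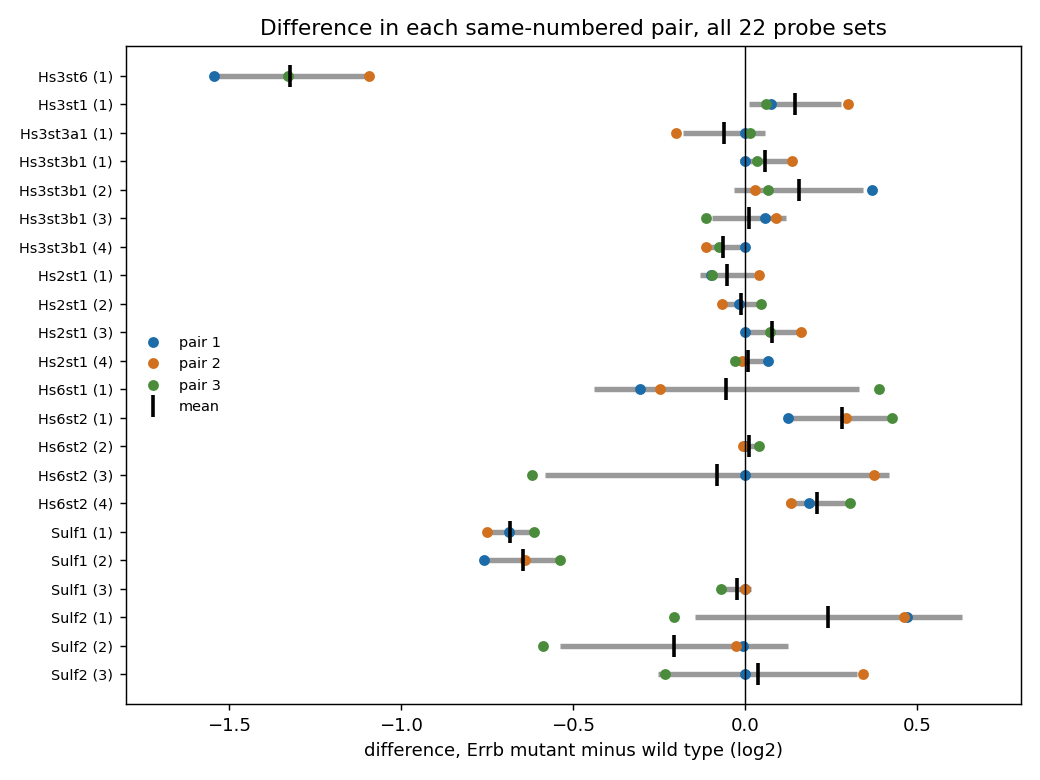
Difference between Errb mutant and wild type (log2, x axis) in each same-numbered pair for all 22 probe sets, numbered within a gene by falling level; coloured points are pairs, black ticks their mean and grey bars ± 1 SD (n = 3 pairs). The Hs3st6 probe set lies between -1.54 and -1.09, and 2 of 3 Sulf1 probe sets between -0.76 and -0.54, while the means of the others lie between -0.21 and 0.28.

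Set against the other enzymes, Hs3st6 stood apart in each pair. The median difference of the other 8 genes was 0, 0.09 and 0.02 in pairs 1 to 3, so Hs3st6 lay 1.54, 1.18 and 1.35 below it on the log2 scale. The lowest of the other genes in each pair was Sulf1, at -0.69, -0.75 and -0.61. Over the pairs, Hs3st6 minus this median averaged -1.36 ± 0.18. Taken on the mean differences of the genes, Hs3st6 minus the median of the others was -1.32, and the median of all 18193 genes was 0.0036. Of the 21 probe sets of the other genes, 18 had a mean difference under 0.25 in size; over all probe sets, 8.48% exceeded that size. Of the 5 genes with several probe sets, Sulf1 alone had mean differences of 1 sign in all of them.

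Counts over the set are given beside the same counts over all probe sets, and nothing is read from them because the genes were chosen on this contrast. Lower values in all 3 pairs were found for 4 of 22 probe sets, against 8.41% of all probe sets, and higher values in all 3 pairs for 4 of 22, against 12.1%. The groups did not overlap for 2 of 22, against 1.07% of all. With limma, the replicate number as a block and Benjamini-Hochberg adjustment over 45037 probe sets, 1 of 22 was below the threshold of 0.05, that of Hs3st6. In the same paired fit 0.0822% of all probe sets were called lower and 0.0111% higher. Without the block 0 of 22 were called, against 0.00666% of all in either direction. The count was also 0 when each array was centred on its median and when any pair was left out, and the Hs3st6 difference lay between -1.44 and -1.21 over these settings.

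The rest of the heparan sulfate pathway was tested in the same fit through 8 lists of 90 other genes, of which 87 were measured. None of the 87 passed in the paired limma fit, where 0.148% of all genes did, or in the fit without the block, where 0.0055% did. The smallest adjusted p was 0.164. At an unadjusted p under 0.05 the paired fit held 10 of 87 genes, 4 lower and 6 higher, or 11.5%, against 7.35% of all genes, and the unpaired fit held 0. Their median difference was 0.02, near that of all genes. Lower values in all 3 pairs were found for 6 of the 87 genes, against 9.03% of all genes, and higher values for 15, against 12.9%.

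Among the 7 other modifying enzymes measured, the median difference was 0.04 and none passed. Hs3st4, a further 3-O-sulfotransferase gene known mainly from neurons, had the opposite sign to Hs3st6. It read 5.42, 6.28 and 6.08 in the mutant and 4.73, 5.84 and 5.07 in wild type, a difference of 0.71 ± 0.29 that did not pass (limma adjusted p = 0.261, paired). All 3 pairs were above 0, although the groups overlapped. The only Hs3st4 probe set was weak, at the 36.5 to 44.9 percentile in the mutant and the 24.3 to 28.7 percentile in wild type. Ndst2, a second N-sulfotransferase gene, differed by 0.12 ± 0.23 (adjusted p = 0.777), and Glce, the epimerase that makes iduronic acid, by 0.04 ± 0.17 (0.917).

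Genes that build the chain had list medians near 0, and none passed in the paired fit. The 5 chain polymerase genes had a median of 0.01, with the copolymerase genes Ext1 and Ext2 at 0.16 ± 0.37 and 0.01 ± 0.13 and Extl3, a chain initiator, at 0.18 ± 0.27. The 5 measured linkage region genes had a median of 0.03. The xylose kinase gene Fam20b differed by 0.16 ± 0.10 and the galactosyltransferase gene B4galt7 by 0.12 ± 0.07, both above 0 in every pair. For the supply of the sulfate donor PAPS, 8 genes had a median of -0.05. Papss1, which encodes a PAPS synthase, differed by 0.11 ± 0.13, the sulfate transporter gene Slc26a2 by -0.17 ± 0.11, and the Golgi phosphatase gene Bpnt2 by 0.29 ± 0.16. Adjusted p-values of these 8 named genes in the paired limma fit ran from 0.555 to 0.981.

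Breakdown enzymes had a median of 0.02 over 11 genes, with 1 exception in size. Hpse encodes heparanase, the enzyme that cuts heparan sulfate chains. It read 8.26, 9.42 and 9.04 in the mutant pools, against 9.14, 10.63 and 9.70 in the wild-type pools. Each mutant pool was below its wild-type partner, by -0.87, -1.21 and -0.66 (mean -0.91 ± 0.28), but the gene did not pass (adjusted p = 0.164, paired limma). The lysosomal enzyme genes Ids and Gusb differed by 0.17 ± 0.18 and 0.25 ± 0.28 (adjusted p = 0.747 and 0.734).

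Of the 14 core protein genes, 5 had higher values in all 3 pairs, against 12.9% of all genes. Lower values in all 3 pairs were found for 1, against 9.03% of all genes. The list median was 0.11, with pair medians of 0, 0.12 and 0.25. The 1 lower gene was Col18a1, which encodes the basement membrane proteoglycan collagen XVIII. It read 9.13, 9.48 and 9.17 in the mutant and 9.82, 10.13 and 9.48 in wild type, a difference of -0.55 ± 0.20 (adjusted p = 0.281). Its second probe set differed by -0.64 ± 0.23. The glypican gene Gpc3 had the highest difference of the list, 0.38 ± 0.22 (adjusted p = 0.496), and Agrn, the agrin gene, differed by 0.05 ± 0.29 (0.914).

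Chondroitin and dermatan sulfate enzymes, which act on the related chains, had a median of 0.003 over 16 genes. The dermatan sulfate epimerase gene Dse differed by 0.40 ± 0.23 (adjusted p = 0.479), the uronyl 2-O-sulfotransferase gene Ust by -0.17 ± 0.01 (0.691) and the chondroitin synthase gene Chsy1 by 0.16 ± 0.11 (0.739). Growth factors and receptors that bind heparan sulfate had a median of -0.02 over 21 genes. The growth factor gene Hgf differed by -0.62 ± 0.67, with pair differences of 0, -0.52 and -1.34, the guidance receptor gene Robo1 by 0.36 ± 0.19 and the pleiotrophin gene Ptn by -0.18 ± 0.23. None of the 3 passed (adjusted p = 0.708, 0.479 and 0.750).

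**Figure D3:**
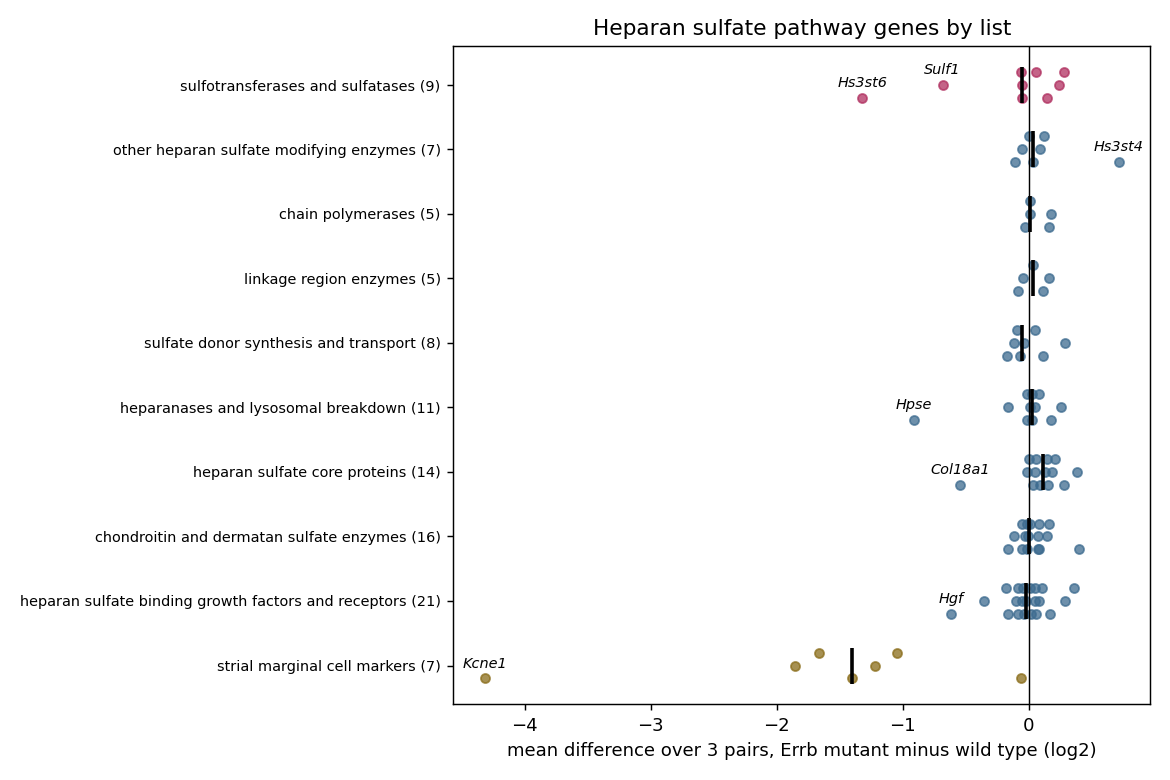
Mean difference between Errb mutant and wild type over 3 pairs (log2, x axis) of each measured gene, by list, with list size in brackets and a black tick at the list median; genes over 0.5 in size are named, of the marginal cell markers Kcne1 alone. Hs3st6 at -1.32 lies apart from the other sulfotransferases, and most of the 87 pathway genes lie near 0.

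Genes were then ranked by how near their 3 pair differences were to those of Hs3st6, as the Euclidean distance over the 3 pairs. The nearest gene was Gjb6, the connexin 30 gene, with -1.31, -1.11 and -1.38 (distance 0.245). Next came Mt3, a metallothionein gene, with -1.39, -1.25 and -1.13 (distance 0.297), and Fads6, a predicted fatty acid desaturase gene, with -1.63, -1.29 and -1.57 (distance 0.326). The sodium-potassium-chloride cotransporter gene Slc12a2 (-1.33, -1.31 and -1.02, distance 0.434) and the sodium pump subunit gene Atp1b2 (-1.62, -1.51 and -1.07, distance 0.496) completed the 5. Both are markers of strial marginal cells, the cells that secrete potassium. Gjb6, the nearest gene, is on the strial basal cell list used below, and Mt3 and Fads6 are on none of the marker lists. The likeness is a description from the contrast by which Hs3st6 was chosen. The same 6 arrays underlie all these values.

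**Figure D4:**
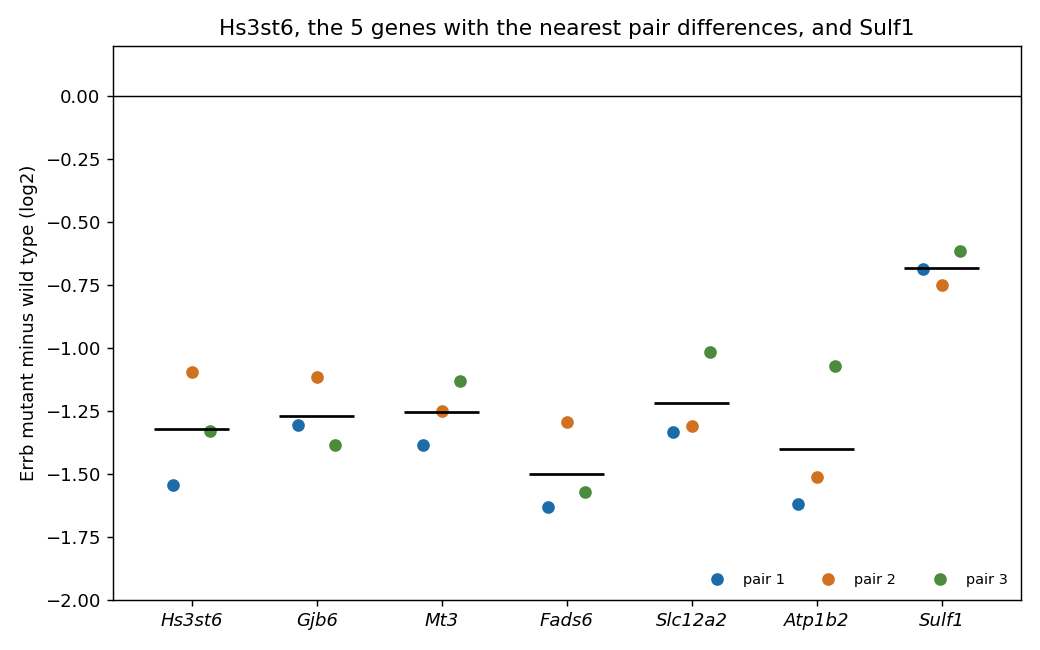
Difference between Errb mutant and wild type (log2, y axis) in each pair for Hs3st6, the 5 genes with the nearest pair differences in order of distance, and Sulf1; points are pairs and black bars their mean (n = 3 pairs). All points of the first 6 genes lie between -1.63 and -1.02, and those of Sulf1 between -0.75 and -0.61.

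Many markers of strial cell types were lower in the mutant as well. Of the marginal cell list 7 of 10 genes were measured, 6 were lower in all 3 pairs and 4 were called lower in the paired fit, where 0.132% of all genes were. The log2 of their summed level ran from 11.9 to 12.7 in the mutant pools and from 13.2 to 14.0 in the wild-type pools. Marker differences ran from -4.32 for Kcne1, the potassium channel subunit gene, to -0.06 for Lrp2, the megalin gene. The list median was -1.40 ± 0.23. For each marker list, the median is over the mean differences of its genes, and the SD is that of the 3 pair medians. The 8 markers of pigmented intermediate cells had 6 lower in all pairs, 0 called and a median of -0.64 ± 0.06. Their summed level ran from 12.1 to 12.8 in the mutant and from 12.6 to 13.5 in wild type. Of the 6 basal cell markers 4 were lower in all pairs and 1, Gjb6, was called, with a list median of -0.28 ± 0.09 and summed levels of 13.2 to 14.3 in the mutant and 13.9 to 14.8 in wild type. The part of these markers in the differences of Hs3st6 and Sulf1 was not tested.

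Markers of other cells in the dissected tissue had list medians nearer 0, except for neurons, and none of these genes was called. Higher in all 3 pairs were 6 of 7 neuron, 4 of 7 fibrocyte and 3 of 5 spindle, root and outer sulcus markers. The same held for 2 of 8 macrophage and 1 of 5 hair cell markers, against 12.9% of all genes. Lower in all 3 pairs were 2 of 7 fibrocyte, 1 of 5 spindle, root and outer sulcus, and 2 of 7 endothelium markers. For hair cells it was 1 of 5, against 9.03% of all genes. Fibrocyte markers had a median of 0.14 ± 0.02, with summed levels of 14.0 to 14.8 in the mutant and 13.7 to 14.7 in wild type. Medians were 0.22 ± 0.11 for spindle, root and outer sulcus cells, -0.17 ± 0.18 for endothelium and 0.13 ± 0.24 for macrophages. They were 0.09 ± 0.09 for Schwann cells, 0.08 ± 0.10 for cartilage and bone, and 0.07 ± 0.15 for hair cells. The Schwann cell medians within pairs 1 to 3 were 0.01, -0.14 and 0.04. Single genes of these lists ranged more widely than the medians. In pair 1, Ibsp of the cartilage and bone list differed by 3.85 and the fibrocyte marker Col1a1 by 2.24. Over the 3 pairs, Anxa1 of the outer sulcus list differed by 0.79 ± 0.17 and the fibrocyte marker Otos by -0.52 ± 0.46. Neuron markers had a median of 2.65 in pair 1, against 0.34 and 0.24 in pairs 2 and 3, with summed levels of 8.08 to 10.7 in the mutant and 7.90 to 8.65 in wild type. Beside these, the Hs3st4 difference was 0.70 in pair 1, 0.44 in pair 2 and 1.01 in pair 3, and the part of neuron markers in it was not tested. Without pair 1, Hs3st6 and Sulf1 differed by -1.21 and -0.68.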

How the data were processed

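The deposited table holds log2 expression values per probe set, which the authors made with RMA according to the submitters' processing notes. No RMA version is stated, and the scale was inferred from the range of values. Of 45101 probe sets, 64 controls were left out, and 34945 had 1 symbol, 932 several and 9160 none in the platform annotation. No filter on level was used. Arrays with the same replicate number were paired, as the comparison was set, and the pairing rests on the labels' numbers. Deviations from group means correlated at 0.879, 0.818 and 0.746 within pairs, against -0.654 to 0.119 in the other combinations. Mutant replicate 2 with wild-type replicate 3 also passed the limit of 0.1, so passing it does not identify a pair. Values equal on both arrays of a pair (15406, 1185 and 1398 probe sets) occurred in no other combination of a mutant and a wild-type array. Differences were fitted with limma 3.58.1 in R 4.3.3 (linear models with eBayes, two-sided), adjusted by Benjamini-Hochberg over 45037 probe sets at a threshold of 0.05. The fit was tested on simulated data with independent normal errors. These data lacked the values equal within pairs, so the test does not cover that feature of the arrays. Each gene is represented by its best expressed probe set. The set was planned as Hs3st6 and 9 others, of which 8 were measured. Named pathway genes were those that passed or, in a list with none, the best expressed and the 2 with the largest difference. Of the listed pathway genes, 3 are not used here. The genes, lists and rules were chosen with earlier results of these data known. Nothing says the pools are independent beyond their labels. The p-values of the paired fit, moderated by eBayes, reflect the spread of the 3 pair differences. Without the block they reflect the spread of the 3 arrays within each group. The number of samples, 6, limits the precision. Alternatives were the fit without the block, quantile normalization, median centring, a level filter, other eBayes options, leaving out pairs or _s_at and _x_at probe sets, gene means and a threshold of 0.1.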

Additional observations from a re-analysis of the deposited data

How the results depend on the processing

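The paired fit, with the replicate block, called 42 probe sets in all and 1 of the enzyme set; without the block these counts were 3 and 0. Leaving out a pair gave 0 to 7 probe sets in all and 0 of the set, with 1 residual degree of freedom. Median centring left 0 of the set, and a threshold of 0.1 gave 92 in all and 2 of the set. Other pathway genes stayed at 0 calls under every setting run. The Hs3st6 difference ranged from -1.44 to -1.21. The median of the other 8 genes, 0.0016, became 0.0562 with the level filter, -0.0537 without _s_at and _x_at probe sets and 0.0186 to 0.0777 without a pair; the first 2 follow from fewer genes or another probe set. The file gives no background, so signal near it cannot be marked.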
